A study of Mus musculus with 23 samples.

Results

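The neighbouring genes Myf5 and Myf6 lie on mouse chromosome 10, and their methylation was followed through every fragment of the deposited read table that overlaps positions 106915000 to 107070000 of the mm9 genome. This window holds both genes and the enhancer region upstream of them, and 8 of the 173430 fragments of the table overlap it. The members were thus chosen by position and not by their values.

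Myf5 and Myf6 encode basic helix-loop-helix transcription factors of the family that also holds MyoD and myogenin, and these factors bind E-box sequences and switch on muscle genes. Myf5 is known as an early determination factor of muscle precursors, including satellite cells, while Myf6 (also called Mrf4) is known as the family member of mature muscle fibres. The pair shares a string of enhancers upstream of Myf5, part of which lies inside the neighbouring gene Ptprq, a receptor-type tyrosine phosphatase of the inner ear.

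Methylation was read by AIMS-seq, a restriction method. SmaI and XmaI recognise the same sequence, CCCGGG. SmaI is blocked by methylation and gives blunt ends, XmaI takes the remaining, methylated copies and gives overhangs, and adaptors ligate to overhangs alone. A fragment between neighbouring sites is therefore amplified from molecules that carry methylation at both of its ends. A read count is a relative measure of such molecules and not a percentage of methylated DNA. It also covers these sites alone and leaves the CpGs between them unread.

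The 23 libraries fall into 9 groups. For embryonic stem cells (ESC) there were 4 libraries, 2 of the line CGR8 (129Sv; the second a technical replicate), 1 of RD1 (129X1/SvJ) and 1 of E14Tg2 (129/Ola). Primary myoblast cultures 21, 26 and 27 (C57BL/6J) were sampled while proliferating at passage 8 to 10 and again as myotubes after 1, 2 and 4 days in differentiation medium, so these 4 stages have n = 3 cultures each. Passage 0 cells came from cultures 26 and 27, and uncultured muscle precursors (C57BL/6J) were represented by a library of uninjured muscle and a library taken 3 days after injury with cardiotoxin (CTX). Whole skeletal muscle gave 3 libraries, of which numbers 1 and 2 were of 129Sv/C57BL/6J background and number 3 was C57BL/6J. Muscle tissue holds many cell types besides muscle fibres. Strain changes together with cell type between ESC and the cultures, so these cannot be told apart. Muscle libraries 1 and 2 also differ in background from the C57BL/6J cultures. Libraries held 6237851 to 14696855 reads, and 87.9% to 98% of the reads of a library fell in fragments under 2000 bp.

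In the whole window a single short fragment could be read. It lies inside Myf5 (ENSMUSG00000000435.1, minus strand, 106919964 to 106923190) with a length of 229 bp, and covers 151 bp of the coding part of exon 3 and the end of the intron before it, with no UTR and no promoter sequence. It is printed here from the mm9 genome with both bounding sites because every methylation value of Myf5 below rests on these 2 sites. It runs 5′ to 3′ in the sense of Myf5 (minus strand), at chr10:106921113-106921347, and the capitals mark the SmaI/XmaI sites.
Myf5 exon fragment: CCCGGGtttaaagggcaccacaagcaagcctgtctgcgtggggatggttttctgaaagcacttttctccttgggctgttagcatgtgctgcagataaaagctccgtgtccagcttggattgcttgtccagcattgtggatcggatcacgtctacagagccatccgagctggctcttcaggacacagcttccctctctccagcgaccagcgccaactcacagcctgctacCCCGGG

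The run of 235 bases holds 9 CpGs, of which the assay reads the pair inside the capitals. The fragment itself has a GC content of 55% and 7 CpGs, at 0.406 of the number its base composition would give. Among the 13367 fragments of 150 to 300 bp on the genome, the medians were a GC content of 61.5%, 7 CpGs and a ratio of 0.479, and 23% had a lower ratio than the Myf5 fragment.

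The next sites on either side stand far away. They are printed with 12 bases to each side because they set what can be said of Myf6, and the ends of a fragment in Ptprq follow because it is the longer member with the most reads. All 4 are from the plus strand of mm9, 5′ to 3′, with the site in capitals.
The site downstream of Myf5, chr10:106905814-106905843: gtgctaccatttCCCGGGtctggacggatt
The first site upstream of Myf5 and beyond Myf6, chr10:106965499-106965528: gaatgaccacgcCCCGGGgtgggctacatt
The left end of the 4193 bp fragment in Ptprq, chr10:106967516-106967545: tccccctccagaCCCGGGcatcctacttct
The right end of the 4193 bp fragment in Ptprq, chr10:106971709-106971738: atgtaatctgatCCCGGGatgcttacatca

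The body of Myf6 (ENSMUSG00000035923.3, minus strand, 106929916 to 106931785) holds 42 CpGs and 0 copies of CCCGGG. The 2000 bp upstream of Myf5 and the 2000 bp upstream of Myf6 hold 0 copies each, and the body of Myf5 holds 2, those printed above. In RefSeq's promoter table (GRCm38.p6, 250 bases before to 50 bases after a start), the Myf5 promoter has 0 copies of CCCGGG, which reads the same on both strands, while 4436 of 32851 promoters (13.5%) hold at least 1. Neither promoter, and no part of Myf6, was therefore read through a short fragment.

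The window as a whole is thinly covered by this assay. It holds 7 sites, or 4.52 per 100 kb against 6.72 per 100 kb over all fragments, and 0.589% of its 1188 CpGs lie in one. Short fragments cover 0.148% of the window and 1.03% of all fragment bases. The members have a median length of 17202 bp, against 6711 bp for all fragments.

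The 7 longer members hold 187 reads over all 23 libraries, and the Myf5 exon fragment holds 5034 of the 5221 reads of the locus (96.4%). Myf6 lies wholly inside a fragment of 44169 bp (106921345 to 106965513) that also spans the start and the first exons of Myf5, the region between the genes and the end of Ptprq. That fragment had 36 reads in all, between 0 and 5 in a library, and 16 libraries had any. The fragment of 15287 bp downstream (106905829 to 106921115), which holds the 3′ end of Myf5, had 3 reads. The other 5 lie in Ptprq and overlap LINE repeats in the deposited annotation (Lx2B, L1Md_T and Lx), and they had 15 reads (2017 bp), 97 (4193 bp), 9 (25878 bp), 13 (19118 bp) and 14 (60379 bp). PCR hardly amplifies fragments as long as the 5 members of 10000 bp or more, and where their few reads come from was not tested. The map of the locus shows how the reads fall on a single short fragment.

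**Figure D1:**
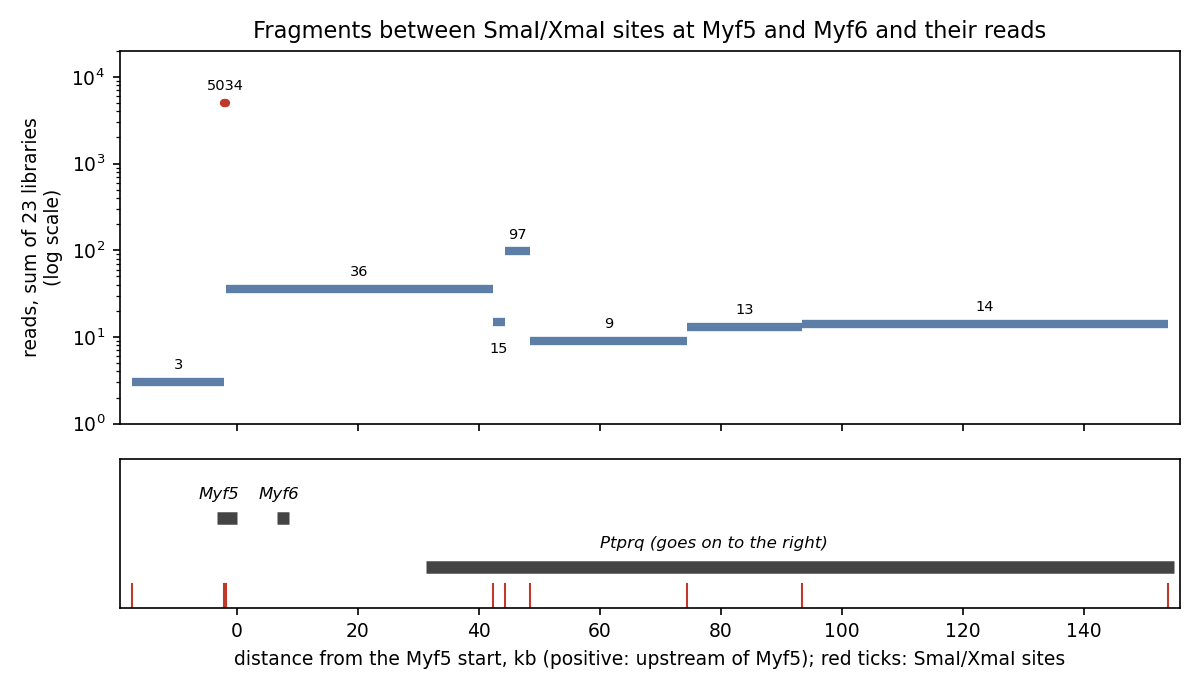
Reads of each locus fragment summed over 23 libraries (upper panel, log scale) against the distance in kb from the Myf5 start, with the genes and the SmaI/XmaI sites below. Each horizontal bar spans 1 fragment. The Myf5 exon fragment (red, 5034 reads) stands far above the 7 longer fragments (blue, 3 to 97 reads).

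Scaled to library totals, the Myf5 exon fragment was read most in ESC, less in muscle tissue and least in proliferating myoblasts. After the TMM scaling used in the tests below, ESC and muscle stood level (42.4 and 44.2 CPM). Levels are counts scaled to library size (CPM, reads per 1000000 reads of the library), with exact Poisson 95% intervals for single libraries. PCR reads carry no molecular identifiers, so these intervals cover counting error only. Over all 23 libraries its mean level was 21.4 CPM, above that of 85.4% of the fragments under 2000 bp.

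In ESC, the CGR8 library had 806 reads (54.8 CPM) and its technical replicate 653 reads (66.6 CPM), RD1 had 519 reads (51.5 CPM) and E14Tg2 had 434 reads (51.8 CPM). The 3 lines lay close together, and all 4 libraries stood above every other library of the study. The CGR8 libraries, made from 1 line, differed by more than counting error, since their intervals of 51.1 to 58.8 and 61.6 to 71.9 CPM do not overlap. With the CGR8 libraries summed, the ESC mean was 54.3 ± 4.56 CPM (SD, n = 3).

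In proliferating myoblasts, culture 21 had 8 reads (0.725 CPM), culture 26 had 49 (6.38 CPM) and culture 27 had 91 (9.41 CPM). The mean was 5.5 ± 4.41 CPM (SD, n = 3), and no myoblast library came near the ESC range.

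Myotubes of day 1 had 4 reads (0.339 CPM) in culture 21, 41 reads (4.26 CPM) in culture 26 and 321 reads (33.8 CPM) in culture 27. At day 2 the same cultures had 8 reads (0.551 CPM), 37 reads (3.96 CPM) and 171 reads (13.4 CPM). At day 4 they had 9 reads (0.71 CPM), 58 reads (6.15 CPM) and 459 reads (33.3 CPM). Cultures 21 and 26 stayed low at each stage, and culture 27 reached the range of muscle tissue on days 1 and 4.

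Passage 0 cells had 82 reads (10.6 CPM) in culture 26 and 37 reads (4.04 CPM) in culture 27. Muscle tissue had 306 reads (28.3 CPM) in library 1, 394 reads (43.9 CPM) in library 2 and 225 reads (22.4 CPM) in library 3, a mean of 31.5 ± 11.1 CPM (SD, n = 3). All 3 muscle libraries lay below all ESC libraries and above all passage 0 and proliferating myoblast libraries. Precursors that were never cultured had 95 reads (15.2 CPM, interval 12.3 to 18.6) from uninjured muscle and 227 reads (29.3 CPM, interval 25.6 to 33.4) after injury. The injured library lay within the muscle range and the uninjured one below it, with 1 library each and thus no replicate check.

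Ordered by their means on library totals, the groups ran from ESC (54.3 CPM) through muscle (31.5), injured precursors (29.3), uninjured precursors (15.2), day 4 myotubes (13.4 ± 17.4), day 1 myotubes (12.8 ± 18.3), passage 0 cells (7.32 ± 4.64, n = 2) and day 2 myotubes (5.98 ± 6.67) to proliferating myoblasts (5.5). Only ESC stood clear of its neighbour among groups with replicates, since the ranges of ESC and muscle do not overlap on this scale. The 2 single libraries of uncultured precursors differed from each other beyond counting error, and all other neighbours in this order overlap.

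**Figure D2:**
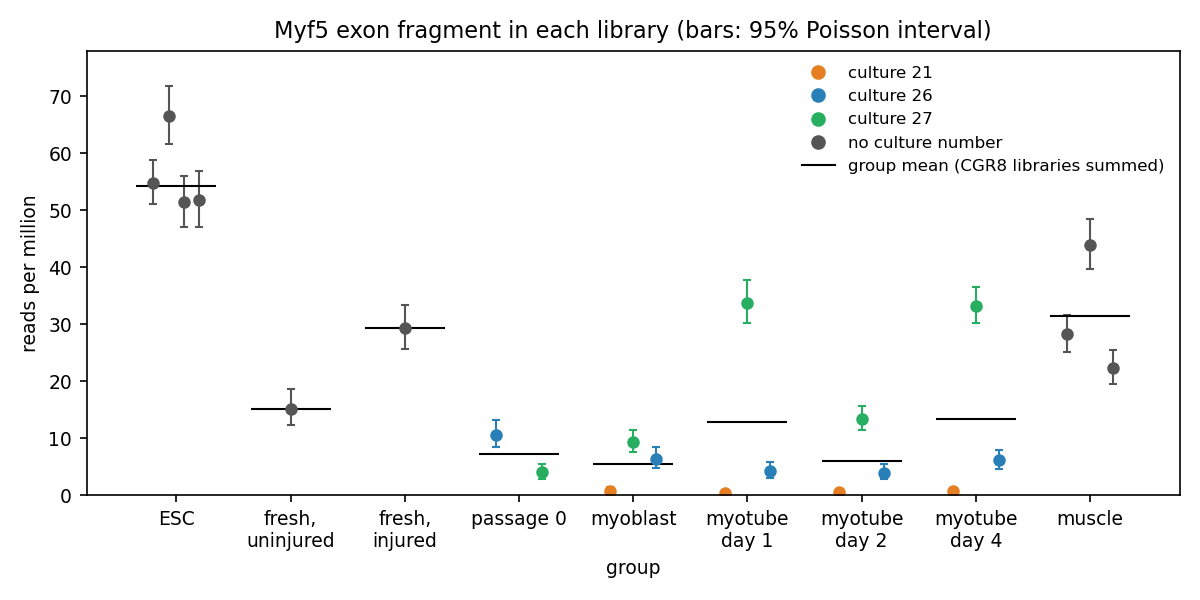
Level of the Myf5 exon fragment in each of 23 libraries, in CPM, by group. Points are libraries with exact Poisson 95% intervals, coloured by culture, and black lines are group means. ESC stand between 51.5 and 66.6, muscle between 22.4 and 43.9, and the 3 cultures lie apart from each other at each stage.

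The level kept the order of the cultures at each stage. Over the 4 stages from proliferation to day 4, culture 21 held 29 reads (mean 0.581 CPM, range 0.339 to 0.725), culture 26 held 185 (mean 5.19 CPM, range 3.96 to 6.38) and culture 27 held 1042 (mean 22.5 CPM, range 9.41 to 33.8). The ranges of the 3 cultures do not overlap, and the mean of culture 27 was 38.7 times that of culture 21. As background, 12385 fragments under 2000 bp had a mean of 5 CPM or more in these 12 libraries. Among these, 12.5% had the order 21 below 26 below 27 at all 4 stages, 24% kept some order, and 7.16% had a ratio of culture 27 to culture 21 at least as large. The culture order of the Myf5 fragment is thus one that many fragments share.

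Ratios of the myotube stages to the proliferating myoblasts of the same culture differed between the cultures. Day 4 over proliferating myoblasts gave a ratio of 0.98 in culture 21, 0.965 in culture 26 and 3.54 in culture 27. Day 1 gave 0.468, 0.668 and 3.6, and day 2 gave 0.761, 0.621 and 1.43, in the same order. At every stage culture 27 alone had a ratio above 1. In culture 21, with 4 to 9 reads, and in culture 26, with 37 to 58 reads, the Poisson intervals of the 4 stages overlap. No myotube stage was called against myoblasts in the tests below. From passage 0 to passage 8 to 10, the level went from 10.6 to 6.38 CPM in culture 26 and from 4.04 to 9.41 CPM in culture 27, so the order of these 2 cultures turned over.

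**Figure D3:**
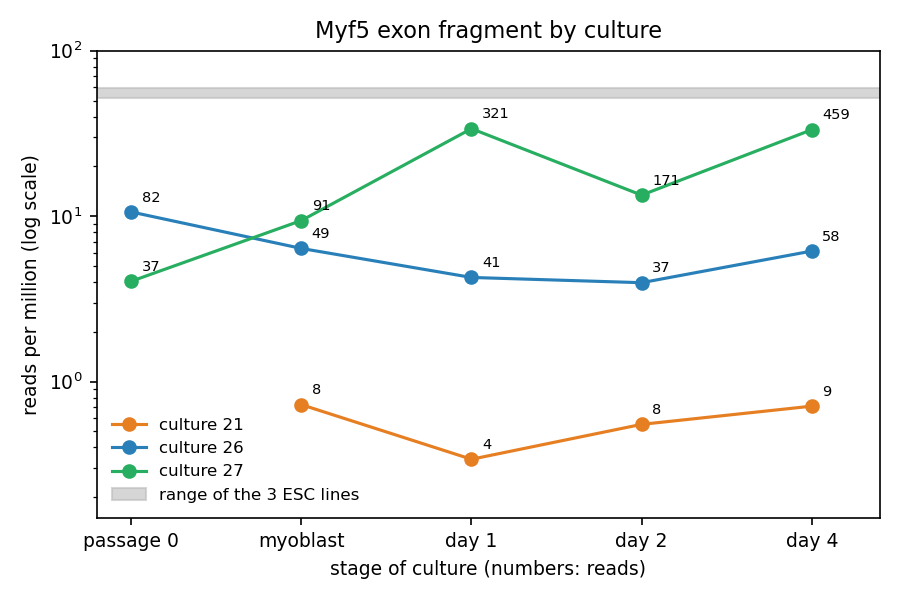
Level of the Myf5 exon fragment in CPM (log scale) by stage of culture, a line for each of cultures 21, 26 and 27, with the number of reads beside each point. The grey band is the range of the 3 ESC lines. From proliferation on, the 3 lines do not cross, and culture 27 goes from 9.41 to 33.8 and 33.3 at days 1 and 4.

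Differences between groups were tested with edgeR's quasi-likelihood test on the raw counts, fitted over all fragments that passed a low-count filter and adjusted over all of them (Benjamini-Hochberg, called at an adjusted p under 0.05). Of the 8 members, the Myf5 exon fragment alone passed the filter, in all 9 comparisons. The other 7 had too few reads to be tested, so Myf6 and the upstream region have no result under this test. Unless said otherwise, levels beside the tests are CPM after TMM scaling within the comparison and can therefore differ from those above.

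Between ESC and proliferating myoblasts, that is, between pluripotent cells and committed muscle precursors, the Myf5 exon fragment fell. It stood at 52.7 ± 13.1 CPM in ESC and 5.4 ± 3.83 in myoblasts (SD, n = 3 each), lower by 9.72-fold in the fit, a log2 change of -3.28 ± 0.72 (SE; 95% interval -4.90 to -1.67; edgeR adjusted p = 0.0102). So 1 of 1 tested member was called, where 19.9% of the 25152 fragments tested were called in either direction and 11.7% were called lower. By p it ranked 2934th of them, with 11.7% of fragments ahead of it, so it was not among the most significant differences. The call was lost without the CGR8 line (-2.86, adjusted p = 0.0512), without culture 26 (-3.38, adjusted p = 0.054) and when all 9 groups shared a single fit (-3.28, adjusted p = 0.155). The authors' deposited table for the same pair counts the 4 ESC libraries separately. There the log2 change was -3.42, with a DESeq adjusted p of 1.23e-49 (pooled dispersion) or 1.59e-18 (dispersion per condition). Of all fragments in that table, 21.3% (pooled) and 28.8% (per condition) were under 0.05.

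Day 4 myotubes against ESC gave -1.76 ± 1.01 (95% interval -4.08 to 0.55; edgeR adjusted p = 0.331), with 13.7 ± 17.6 CPM in myotubes and 46.9 ± 11.8 in ESC. The member was not called, against 11.3% of all fragments tested. All 3 myotube libraries were below all ESC libraries, and culture 27 stood highest among them. Without that library the change was -3.60 and passed the threshold (adjusted p = 0.0297). The authors' deposited table gives -2.16 with DESeq adjusted p-values of 1.15e-07 (pooled) and 2.05e-11 (per condition). There 17.6% (pooled) and 29.4% (per condition) of all fragments were under 0.05.

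Muscle tissue against proliferating myoblasts gave the opposite sign. The level was 40.2 ± 19.8 CPM in muscle and 4.26 ± 3.12 in myoblasts (n = 3 each), higher by 9.39-fold in the fit, a log2 change of 3.23 ± 0.81 (95% interval 1.41 to 5.05; edgeR adjusted p = 0.0195). The member was called, where 31.1% of fragments were called in either direction and 13.7% were called higher. The call did not hold with library totals in place of TMM scaling (2.50, adjusted p = 0.0501), in a single fit of all 9 groups (3.39, adjusted p = 0.115), without culture 26 (3.44, adjusted p = 0.0577), without muscle library 1 (3.49, adjusted p = 0.062) or without muscle library 2 (2.88, adjusted p = 0.0704). Without muscle library 1 or 2, edgeR called 0 of all fragments, with 7165 and 7725 at an unadjusted p under 0.05. The authors' deposited table gives 2.46 with DESeq adjusted p-values of 0.000189 (pooled) and 0.0036 (per condition). There 25.2% (pooled) and 34% (per condition) of all fragments were under 0.05. This comparison and that of myoblasts with ESC share the myoblast libraries. Muscle libraries 1 and 2 are those of mixed background, so strain and tissue cannot be fully told apart here.

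Muscle against ESC depended on the scaling. In CPM of all reads the 2 groups did not overlap (22.4 to 43.9 CPM against 51.5 to 59.5 CPM for the 3 lines), while after TMM scaling they stood at 44.2 ± 20.2 and 42.4 ± 9.81 CPM. The fitted change was 0.06 ± 0.41 (95% interval -0.85 to 0.97; edgeR adjusted p = 0.908), where 59.1% of fragments were called. With library totals it was -0.81 (adjusted p = 0.0795), with fragments under 2000 bp only -0.40 (adjusted p = 0.413), and with the replicate number as a block -0.02 (adjusted p = 0.967). The median change of all fragments tested was -0.34, and the Myf5 value lay above it. The authors' deposited table gives -0.96 with DESeq adjusted p-values of 2.55e-05 (pooled) and 2.85e-05 (per condition). There 38.8% (pooled) and 48.2% (per condition) of all fragments were under 0.05.

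Muscle against day 4 myotubes gave 1.90 ± 1.03 (95% interval -0.41 to 4.22; edgeR adjusted p = 0.278), and 0% of the 19353 fragments tested were called by edgeR, 4613 had an unadjusted p under 0.05, and DESeq2 called 2231 (11.5%). The Myf5 fragment was not called by DESeq2 either. Without culture 27 at day 4 the change was 3.60 (adjusted p = 0.0596). In the authors' deposited table this pair has 1.19, with adjusted p-values of 0.409 (pooled) and 0.235 (per condition).

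None of the comparisons within the cultures called the Myf5 fragment. Against proliferating myoblasts the change was 1.60 ± 1.39 at day 1 (95% interval -1.61 to 4.80), 0.53 ± 1.24 at day 2 (-2.37 to 3.43) and 1.33 ± 1.15 at day 4 (-1.29 to 3.95), each with an edgeR adjusted p of 1. Proliferating myoblasts against passage 0 cells gave -0.72 ± 0.85 (-2.67 to 1.22; edgeR adjusted p = 0.978). With the culture as a block, the values were 0.48 ± 0.76 at day 1, 0.00 ± 0.99 at day 2 and 0.87 ± 0.62 at day 4 (edgeR adjusted p = 1, 0.999 and 0.999), and -0.18 ± 0.74 for cultures 26 and 27 against passage 0 (adjusted p = 0.941). In the fits without a block, 0% of all fragments tested were called by edgeR in these 4 comparisons. At an unadjusted p under 0.05 these fits had 6, 64, 83 and 665 fragments. DESeq2, also without a block, called 0, 0, 0 and 3 (0.0128%). With the block, edgeR called 0, 0, 39 and 1034 fragments, the last without culture 21, and the standard errors of the Myf5 fragment were smaller. The intervals above are from the fits without a block. They are wide, and changes of several-fold in either direction lie inside them. Without culture 27 at the stage tested, the sign turned to -0.95 at day 1, -1.10 at day 2 and -0.39 at day 4. The authors' deposited table gives 1.26 from proliferation to day 4 (both adjusted p-values 1), and 0.41 from proliferation to its group SC.AP (both adjusted p-values 1).

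**Figure D4:**
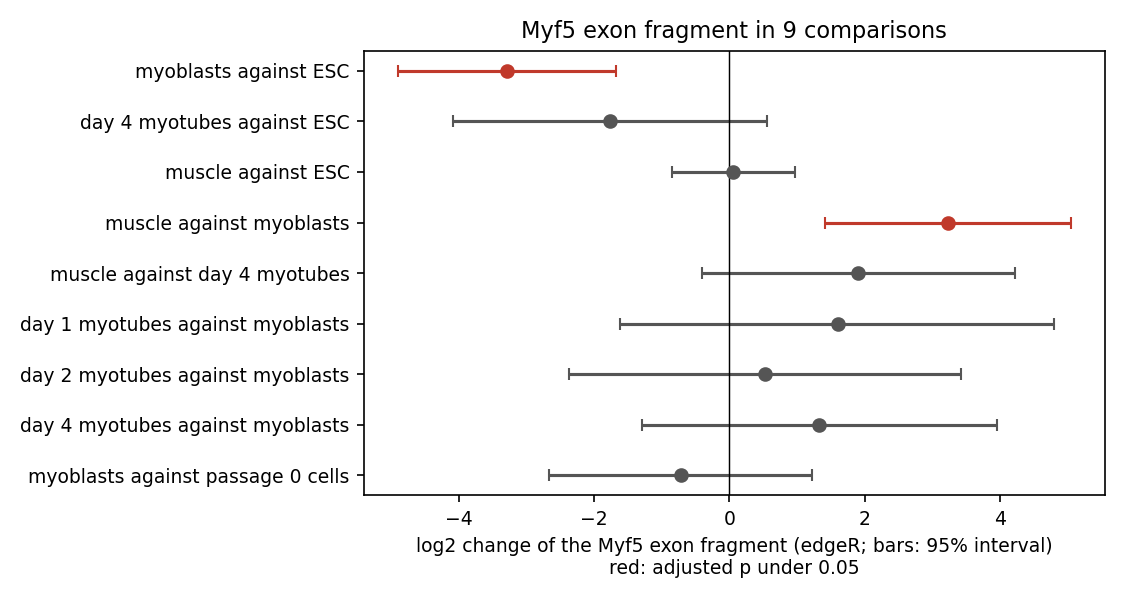
Log2 change of the Myf5 exon fragment in 9 comparisons, the first group named over the second, with 95% intervals. Values are from edgeR's quasi-likelihood test without a culture block, and red marks an adjusted p under 0.05. Myoblasts against ESC (-3.28) and muscle against myoblasts (3.23) pass, and the other 7 intervals include 0.

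Of the members in Ptprq, the fragment of 4193 bp (106967531 to 106971723, with 34 bp of coding exon and a Lx2B LINE element) had enough reads to describe. In ESC it had 7 and 6 reads in the CGR8 libraries, 4 in RD1 and 11 in E14Tg2. Proliferating myoblasts had 2 reads in culture 21, 0 in culture 26 and 17 in culture 27, so a single library held most of their reads. Across the 9 myotube libraries it had 1 to 9 reads, in passage 0 cells 7 (culture 26) and 3 (culture 27), and in the injured precursors 4.

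All 3 muscle libraries, and the uninjured precursors, had 0 reads of this fragment. With 0 of 29827014 muscle reads, the limit for muscle was set at 0.101 CPM (3 reads over the group). The pooled ESC libraries (28 reads, 0.652 CPM) stood 6.48-fold above that limit. This ratio is not a lower bound, since the pooled ESC level has a Poisson interval of 0.433 to 0.942 CPM. The ESC lines themselves ran from 0.397 to 1.31 CPM. No such ratio is given against myoblasts, since culture 27 held 17 of their 19 reads and culture 26, like muscle, had 0. It was below the low-count filter of the main test. Without that filter it was called lower in muscle than in ESC (adjusted p = 0.0138) and not called against myoblasts (adjusted p = 0.0561). With all 9 groups in a single fit, both were called (edgeR adjusted p = 0.0178 and 0.043). The filter of that fit could be passed on the reads of a single library. The fragment passed through E14Tg2 (1.31 CPM) and myoblast culture 27 (1.76 CPM), which belong to the groups it was then compared with. These calls are therefore no support for a difference. At 4193 bp it is longer than the fragments this assay mostly reads, and the share of reads in fragments of 2000 bp or longer was itself lower in muscle than in ESC, since shorter ones took 97.4% to 98.02% of muscle reads and 87.89% to 89.98% of ESC reads. The part of that difference in the result was not tested.

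The other genes of the myogenic programme were taken as a list of 27 genes (family members, Pax and sine oculis homeobox factors, Mef2 genes and cofactors), with 213 fragments in or near them outside the locus. Between 18 and 24 of these were tested in a comparison, from 11 to 14 of the genes. Pax7 alone had 10 fragments that were tested in any comparison, and Pax3 and Tead4 had 3 each. The counts below are therefore of fragments and not of genes. Against ESC, 3 of 23 were higher and 1 lower in myoblasts (median log2 change 0.70, against -0.08 for all fragments tested, of which 8.22% were higher and 11.7% lower), 1 of 23 was higher in day 4 myotubes (1.17 against 0.00, with 5.42% of all higher and 5.93% lower), and 14 of 23 were higher and 5 lower in muscle (2.54 against -0.34, with 24.4% higher and 34.6% lower). Against myoblasts, 6 of 24 were higher and 4 lower in muscle (1.11 against -0.13, with 13.7% higher and 17.4% lower), and in the other 5 comparisons none was called by edgeR. These counts rest on single libraries: leaving one out gave 1 (without E14Tg2 or culture 26) to 11 (without culture 21) called for myoblasts against ESC, and 0 (without RD1 or E14Tg2) to 10 (without culture 21) for day 4 myotubes against ESC. For muscle against myoblasts, 10 became 0 without muscle library 1 or 2, 4 without culture 26 and 5 without culture 27. With only the first CGR8 library, 0 were called for myoblasts against ESC. The Myf5 exon fragment thus fell from ESC to myoblasts while the median of the list was positive.

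Myod1, which encodes MyoD, had 3 fragments and Myog (myogenin) had 4, and none of them passed the low-count filter in any comparison. Levels of Pax3 and Pax7 are given here as CPM of library totals, while their changes come from the TMM-scaled fits. The most read tested fragment of Pax3, a paired-box factor of early muscle progenitors (chromosome 1, 78193784 to 78194508), stood at 3.62 ± 2.12 CPM in ESC, 13.8 ± 14.3 in myoblasts and 112 ± 64.4 in muscle (n = 3 each). Its change from ESC to myoblasts was 1.98 ± 0.75 (edgeR adjusted p = 0.0985), of the opposite sign to that of Myf5, and from myoblasts to muscle 3.80 ± 0.91 (adjusted p = 0.0172). That of Pax7, the satellite cell factor (chromosome 4, 139294972 to 139295493), stood at 38.4 ± 6.79, 135 ± 105 and 127 ± 48 CPM, and rose from ESC to myoblasts by 1.86 ± 0.54 (edgeR adjusted p = 0.0378).

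The pattern of the Myf5 exon fragment over the libraries was shared by fragments on other chromosomes. Among 6128 gene-overlapping fragments under 2000 bp with a mean of 10 CPM or more, the closest 5 by Pearson's r of log2(CPM + 0.5) over 22 samples (CGR8 summed) all lie in introns. They belong to Deptor, an inhibitor of mTOR signalling (chromosome 15, 54949318 to 54949865), Hsd17b2, a hydroxysteroid dehydrogenase (chromosome 8, 120240103 to 120241083), Fras1, a basement membrane protein (chromosome 5, 97128131 to 97128381), Itgb6, an integrin subunit of epithelia (chromosome 2, 60535596 to 60535841), and Slit3, a secreted guidance protein (chromosome 11, 35090256 to 35090703). Each has r = 0.99, and Spearman's rho is 0.97 to 0.99. The median r of all candidates was 0.05, and 10.9% reached 0.8.

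These are descriptions over samples that share libraries, depth and cultures. The 5 fragments were chosen as the closest over all of these samples, so a high r in a part of them follows from the choice. It was 0.982 to 0.986 within the 14 culture samples from passage 0 to day 4, and 0.982 to 0.988 (n = 20) without the 2 samples farthest from the median, both of culture 21. With a pseudocount of 2, or with Spearman's rho as the measure, 3 of the 5 fragments were among the closest.

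The levels relative to ESC are described for the same 5 fragments. They were chosen over these same samples, so closeness to Myf5 follows largely from the choice. With the ESC mean set to 100%, the Myf5 fragment stood at 10.1% in proliferating myoblasts and the other 5 fragments at 7.96% to 15.5%. In muscle it stood at 58.1% and they at 45.5% to 65.2%, in the injured precursors at 54% and 44.5% to 57.3%, and in the uninjured ones at 28.1% and 19.7% to 43.4%. In every group the Myf5 value lay inside the range of the 5.

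Single libraries of the cultures, which also entered the choice, are given as description. In day 1 myotubes of culture 21 the Myf5 fragment, at 0.625%, lay below the 5 others (0.854% to 1.92%). In day 4 myotubes of culture 27 the Myf5 fragment was at 61.3% of the ESC mean and the 5 others at 48.8% to 63.5%. In culture 26 it was at 11.3% and they at 9.57% to 15.6%, and in culture 21 at 1.31% and they at 0.942% to 4.18%. In proliferating myoblasts the values were 17.3% and 12.2% to 29.2% in culture 27, 11.7% and 7.77% to 21.1% in culture 26, and 1.33% and 0.94% to 2.56% in culture 21. Passage 0 cells of culture 26 had 19.5% and 14.4% to 23.9%, above those of culture 27 with 7.45% and 2.81% to 12.7%, so these fragments also turned over between passage 0 and later passages. The 5 fragments had the high level of culture 27 at day 4 in common with Myf5. That library was among the samples used to choose them, so this is no separate result.

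**Figure D5:**
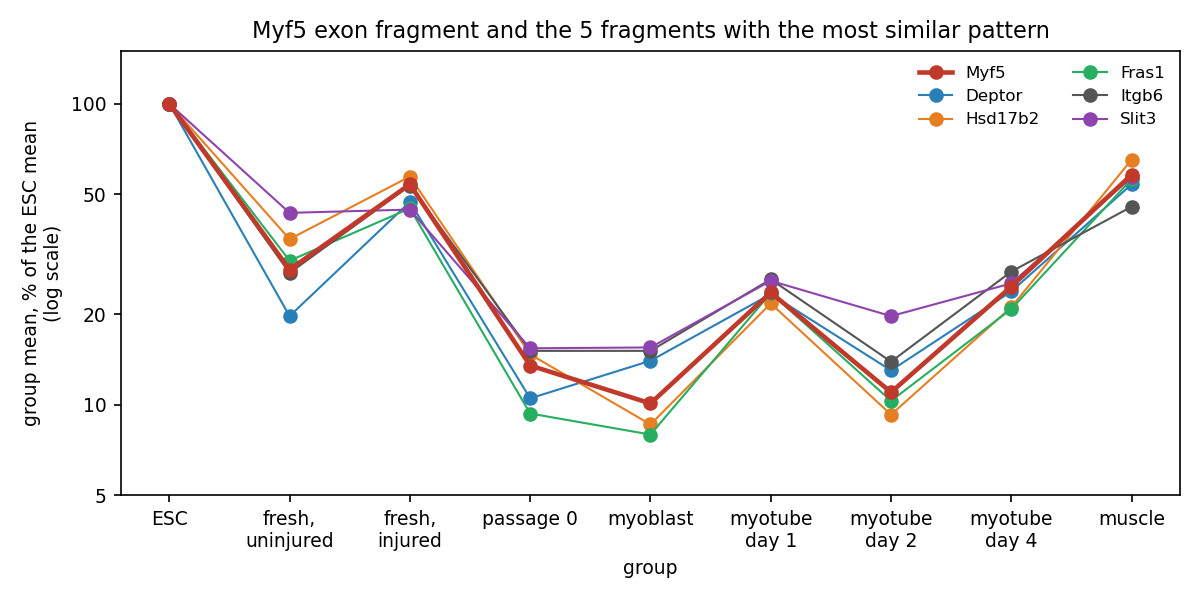
Group means of the Myf5 exon fragment (thick red line) and of the 5 fragments with the most similar pattern, as a percentage of each fragment's ESC mean (log scale). The 5 were chosen over these same samples, so their closeness follows largely from the choice. They lie at 7.96% to 15.5% in proliferating myoblasts and 45.5% to 65.2% in muscle, and Myf5 lies at 10.1% and 58.1%.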

How the data were processed

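Per the labels' protocols, reads came from an Illumina GA2 and were mapped to mm9. Bowtie 0.11.3 and DESeq (no version) stand in the submitters' processing notes. How reads were filtered or counted per fragment is not given in the sources used here. The deposited table holds raw read counts per fragment. The authors' deposited comparison tables hold log2 fold changes and adjusted p-values from DESeq. A scaled table and further per-sample columns (184 in all) were not used.

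Fragment ends were checked against mm9, and genes came from GENCODE M1. Counts were tested with edgeR 4.0.16 in R 4.3.3 (TMM, filterByExpr with a minimum count of 10, quasi-likelihood, 2-sided, Benjamini-Hochberg over all fragments tested, threshold 0.05) on the 2 groups of each of 9 comparisons, with the CGR8 libraries summed. The standard error is the log2 change over the root of F. DESeq2 1.42.0 was an alternative. Likeness, intervals and figures used Python 3.11.15 (pandas 2.3.3, numpy 2.4.6, scipy 1.17.1, matplotlib 3.10.9). The scripts were tested on simulated data.

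Named fragments are the Myf5 exon fragment, members at Myf5 or Myf6, called members, the member with the most reads under 2000 bp and, for likeness, the closest 5. The 4193 bp fragment was also singled out after its values were seen. Members and lists were chosen with earlier results of these data known. Nothing in the labels says that ESC or muscle libraries came from separate cultures or animals beyond their names, so p-values measure the spread between these samples.

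Myotube stages and myoblasts share culture numbers in their titles. The deviations of same-numbered samples from their group means correlated at 0.46 to 0.88, each best with its own number, so the cultures pair these samples. Between myoblasts and passage 0 cells the value was 0.43 for culture 26 and -0.02 for culture 27. The deviations of only 2 passage 0 samples mirror each other, so the best match follows from the sign alone. Pairing could therefore not be judged there. ESC share numbers only by order of labels with myoblasts (0.02 to 0.32), day 4 myotubes (0.22 to 0.44) and muscle (0.11 to 0.17).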

Additional observations from a re-analysis of the deposited data

Results flagged for a closer look

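The libraries of uncultured precursors enter no test, and their reads of the locus exceeded the 3 reads taken as the limit of detection. The Myf5 exon fragment had 95 reads in the library from uninjured muscle and 227 in the library from injured muscle. The 4193 bp fragment in Ptprq had 4 reads in the injured library. With 1 library for each condition the difference between them was not tested. No group holds more than 3 independent samples, so no library was tested for standing apart from its group.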

How the results depend on the processing

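Of 122 alternative values of the Myf5 exon fragment, 105 kept both the direction and the side of the threshold of the main test. This total spans all 9 comparisons, and where the main test made no call, staying uncalled counts as kept. For myoblasts against ESC, 8 of 9 other settings and 4 of 6 fits with a sample left out passed the threshold. For muscle against myoblasts, 5 of 7 and 3 of 6 did. For myoblasts against ESC, the call was lost in the fit of all 9 groups (-3.28, with 0 members called), and leaving out a library gave -3.64 to -2.67, with 0 to 1 members called. For muscle against myoblasts, it was lost with library totals (2.50, 0 members called) and with all 9 groups (3.39, where the 4193 bp fragment was called instead), and leaving out a library gave 2.80 to 3.71, with 0 to 1 members called. For day 4 myotubes against ESC, leaving out a library gave -3.60 to -1.18, with 0 to 1 members called. For muscle against ESC the sign turned with library totals (-0.81), no low-count filter (-0.04), fragments under 2000 bp (-0.40) and the replicate block (-0.02), and leaving out a library gave -0.23 to 0.44. There 1 member, the 4193 bp fragment, was called with no filter and with all 9 groups. In the fits of all 9 groups that fragment passed the filter only through single libraries, as described above. Leaving out a library gave -0.95 to 2.15 for day 1, -1.10 to 1.27 for day 2 and -0.39 to 1.84 for day 4 against myoblasts. The lowest of each came without culture 27 at that stage. The cause of these changes was not tested.

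The replicate block changed no call of a member. It raised the calls over all fragments from 0 to 39 for day 4 myotubes against myoblasts and, by culture and without culture 21, from 0 to 1034 for myoblasts against passage 0 cells, and lowered them from 6309 to 1431 for muscle against myoblasts. Calls over all fragments for day 4 myotubes against ESC were 2893, and between 1077 (fragments under 2000 bp) and 6173 (no filter) otherwise. Scaled to the reads of short fragments, the ESC level was 61.2 CPM in place of 54.3. With a minimum of 10 CPM, chosen after seeing the data, 11.9% of fragments had the culture order of the Myf5 fragment in place of 12.5%. The 7 longer fragments held 187 reads in all, too few for the main test.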
